A study of Mus musculus with 8 samples.

Results

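The 10 genes described here encode enzymes that carry glucose to lactate: the hexokinases Hk1 and Hk2, the phosphofructokinase Pfkp and its regulator Pfkfb3, the aldolases Aldoa and Aldoc, the phosphoglycerate kinase Pgk1, the pyruvate kinase Pkm and the lactate dehydrogenase subunits Ldha and Ldhb. They were chosen by name from the 31053 genes of the deposited count tables, and all 10 had counts in cells that passed the filter, from 339 (Hk2) to 21004 (Aldoc). Their levels were followed across progenitors, neuroblasts, astroglia, oligodendrocytes and vascular cells in each of the 2 libraries.

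Glycolysis begins when a hexokinase traps glucose in the cell as glucose 6-phosphate. Phosphofructokinase then commits the sugar to breakdown, aldolase cleaves it, and phosphoglycerate kinase and pyruvate kinase yield ATP. Lactate dehydrogenase interconverts pyruvate and lactate, and tetramers rich in the Ldha subunit are classically associated with lactate production and those rich in Ldhb with lactate use. Several steps are run by isoenzymes encoded by separate genes, and in brain Aldoc is a classical astrocyte gene while Aldoa is expressed more broadly. The use of glycolysis is known to differ between neural stem cells, neurons, glia and the endothelium of the blood-brain barrier.

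The study compared Nestin-GFP mice, which express GFP from the promoter of the Nestin gene, after a unilateral controlled cortical impact (TBI) and after a sham craniotomy (Control). The mice were 8-week-old males, and on day 15 the dentate gyrus (DG, for TBI the one on the injured side) was dissected and dissociated, dead cells were excluded by propidium iodide, and GFP+ cells were sorted and sequenced with a droplet-based 3′ kit. Animals of a condition were pooled before the sort, so each condition was 1 library and had no replicate check. The labels list 4 animals per condition whereas the study's methods give other numbers, and cells cannot be assigned to animals. The gate on GFP decided which cells were sampled, so cell numbers are not tissue proportions.

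Libraries held 3086 Control and 5081 TBI barcodes with 24723113 and 31543330 unique molecular identifiers (UMIs, each standing for 1 captured RNA molecule). After a filter on RNA content 3049 and 5036 cells remained, with a median of 6928 and 5663 UMIs, and 3 barcodes were shared by the libraries. Doublet calling marked 1.25% of Control and 2.16% of TBI cells. Clusters were named by fixed markers, without any of the 10 genes taking part in clustering or naming, and the names below stand for "-like" classes rebuilt for this purpose. The main classes held 214 Control and 255 TBI cycling progenitors, 101 and 147 radial-glia-like (RG-like) progenitors, 169 and 326 early neuroblasts, 431 and 740 late neuroblasts, 55 and 30 stem-like astroglia, 559 and 514 astrocytes, 571 and 1114 oligodendrocytes, 292 and 654 endothelial cells and 281 and 707 mural cells. Another 238 and 225 cells stayed unnamed. Levels are given as UMIs of a gene per 1000000 UMIs of the class (CPM), Malat1 left out, with 95% exact Poisson intervals in brackets. These intervals, like those of ratios and shares, cover counting error only and say nothing of differences between animals or sorts.

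All 10 genes matched the RefSeq promoter table of GRCm38.p6. Of the genes below, the upstream sequences of Ldha, Ldhb and Hk2 are shown because these 3 had the most class-restricted or contrasting levels among the lactate dehydrogenases and hexokinases. Each run is the 250 bases before the first start listed, on the gene's strand from 5′ to 3′. Capitals mark ACGTG or its reverse complement CACGT, a form of the core letters of the hypoxia response element. Other forms such as GCGTG, which the Ldhb run holds, were not searched. Overlapping matches on both strands were joined and counted once. Ldha lies at chr7:46845554-46845803 (plus strand), within the gene as the longer annotation of GRCm38 draws it (7:46841475-46855627). Ldhb lies at chr6:142507958-142508207 and Hk2 at chr6:82774455-82774704, both on the minus strand.
Ldha: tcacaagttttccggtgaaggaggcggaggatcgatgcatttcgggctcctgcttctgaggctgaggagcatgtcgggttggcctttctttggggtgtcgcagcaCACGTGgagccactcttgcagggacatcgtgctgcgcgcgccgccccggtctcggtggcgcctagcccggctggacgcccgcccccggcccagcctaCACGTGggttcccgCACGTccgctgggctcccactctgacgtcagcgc
Ldhb: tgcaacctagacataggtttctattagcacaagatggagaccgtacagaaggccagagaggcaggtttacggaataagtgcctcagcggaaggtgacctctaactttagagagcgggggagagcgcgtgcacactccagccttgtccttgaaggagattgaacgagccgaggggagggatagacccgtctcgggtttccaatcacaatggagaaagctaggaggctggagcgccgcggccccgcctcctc
Hk2: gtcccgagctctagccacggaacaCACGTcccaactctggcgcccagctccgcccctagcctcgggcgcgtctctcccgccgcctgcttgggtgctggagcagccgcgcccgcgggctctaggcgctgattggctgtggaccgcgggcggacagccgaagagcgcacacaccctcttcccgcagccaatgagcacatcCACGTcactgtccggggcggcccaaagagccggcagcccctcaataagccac

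The motif occurred 3 times in the Ldha window, 2 times in those of Hk2 and Pgk1, once in that of Pfkfb3, and not in those of Ldhb, Aldoa, Aldoc, Pfkp, Pkm and Hk1 at their first start. Of 27025 genes with a first start, 16.6% had at least 1 match in the same length, 2.02% at least 2 and 0.266% at least 3. With every listed start counted, 6 of the 10 genes had a match, as did 18.5% of all genes, but 6 of the 10 have several starts listed against 15.4% of all genes. The GC box letters GGGCGG, searched on both strands, were present at the first start of 7 of the 10 genes and of 32.9% of all genes. Both motifs contain the letters CG, and base composition differed from that of all genes. The median over all first starts was 6 CG pairs and 52% GC. Ldha had 25 and 67.2%, Hk2 25 and 69.6%, Pfkfb3 24 and 68.4% and Pgk1 17 and 62.8%. Members without an ACGTG match at their first start ran there from 0 CG pairs (Aldoa) to 21 (Pkm). Both of these genes had a match at another listed start. The shares of all genes were not matched for composition, so they do not show enrichment. The matches describe letters and were not tied to binding of any factor.

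Progenitors and early neuroblasts held RNA of both hexokinases, whereas in the other main classes Hk1 made up at least 91.5% of the pair, apart from the 10 UMIs of TBI stem-like astroglia (70.0%). Hk1, the hexokinase that most brain cells use, is at 10:62268855-62379908 (minus strand, GRCm38), and Hk2, the inducible isoenzyme of growing and immune cells, at 6:82725025-82774454 (minus strand). Hk1 was lowest among the main classes in Control cycling progenitors, at 18.4 CPM [14.2, 23.4], and stood at 27.5 CPM [21.95, 34.0] there in TBI. In late neuroblasts it reached 65.4 CPM [57.9, 73.5] in Control and 68.1 CPM [61.4, 75.4] in TBI. Astrocytes held 63.0 and 73.5 CPM, whose intervals overlapped those of late neuroblasts, while oligodendrocytes held only 23.2 and 21.2 CPM.

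Hk2 ran the other way along the neuronal lineage. It was at 14.6 CPM [8.91, 22.5] in Control and 15.5 CPM [9.95, 23.1] in TBI RG-like progenitors, and at 4.96 CPM [3.07, 7.58] and 3.25 CPM [1.93, 5.14] in late neuroblasts. Cycling progenitors (8.63 and 10.4 CPM) and early neuroblasts (10.6 and 6.17 CPM) lay between, with intervals that overlapped one another. Hk1 made up 66.7% [53.3, 78.3] of the UMIs of the pair in Control and 63.6% [50.9, 75.1] in TBI RG-like progenitors, against 93.0% [89.4, 95.6] and 95.4% [92.9, 97.3] in late neuroblasts. The intervals of these 2 classes did not overlap in either library, and the shares came from 60 and 66 UMIs in RG-like progenitors and from 298 and 395 in late neuroblasts. No Hk2 UMI was found in 292 Control endothelial cells, where 3 UMIs would have been 2.2 CPM, and 1 was found in the 654 TBI cells.

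The highest Hk2 level lay outside the main classes, in microglia, of which only 38 Control and 89 TBI cells were present. Microglia held 275 CPM [205, 360] in Control and 172 CPM [135, 214] in TBI, from 52 and 77 UMIs, and Hk1 was at 3 and 4 UMIs. Hk1 was therefore 5.46% [1.14, 15.1] and 4.94% [1.36, 12.2] of the pair in microglia, the reverse of every other class with at least 20 UMIs of the pair in a library. With each cell thinned to 2000 UMIs, 30.8% [14.3, 51.8] of 26 Control and 32.4% [21.8, 44.6] of 71 TBI microglia had an Hk2 UMI, against 0.611% of 491 and 0.293% of 341 astrocytes. The unthinned shares were 44.7% and 47.2% in microglia, whose median depth was 4554 and 5856 UMIs, and 0.716% and 0.195% in astrocytes, at 3843 and 2895 UMIs. The ratio of TBI to Control in microglia was -0.68 on the log2 scale [-1.21, -0.14]. Microglial clusters differed, with Hk2 over both libraries at 218 CPM [182, 261] in a cluster of 83 cells. It was at 79.9 CPM [29.3, 174] in a cluster of 44 cells, where Malat1, a nuclear RNA, was a median of 0.0696% of UMIs.

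**Figure D1:**
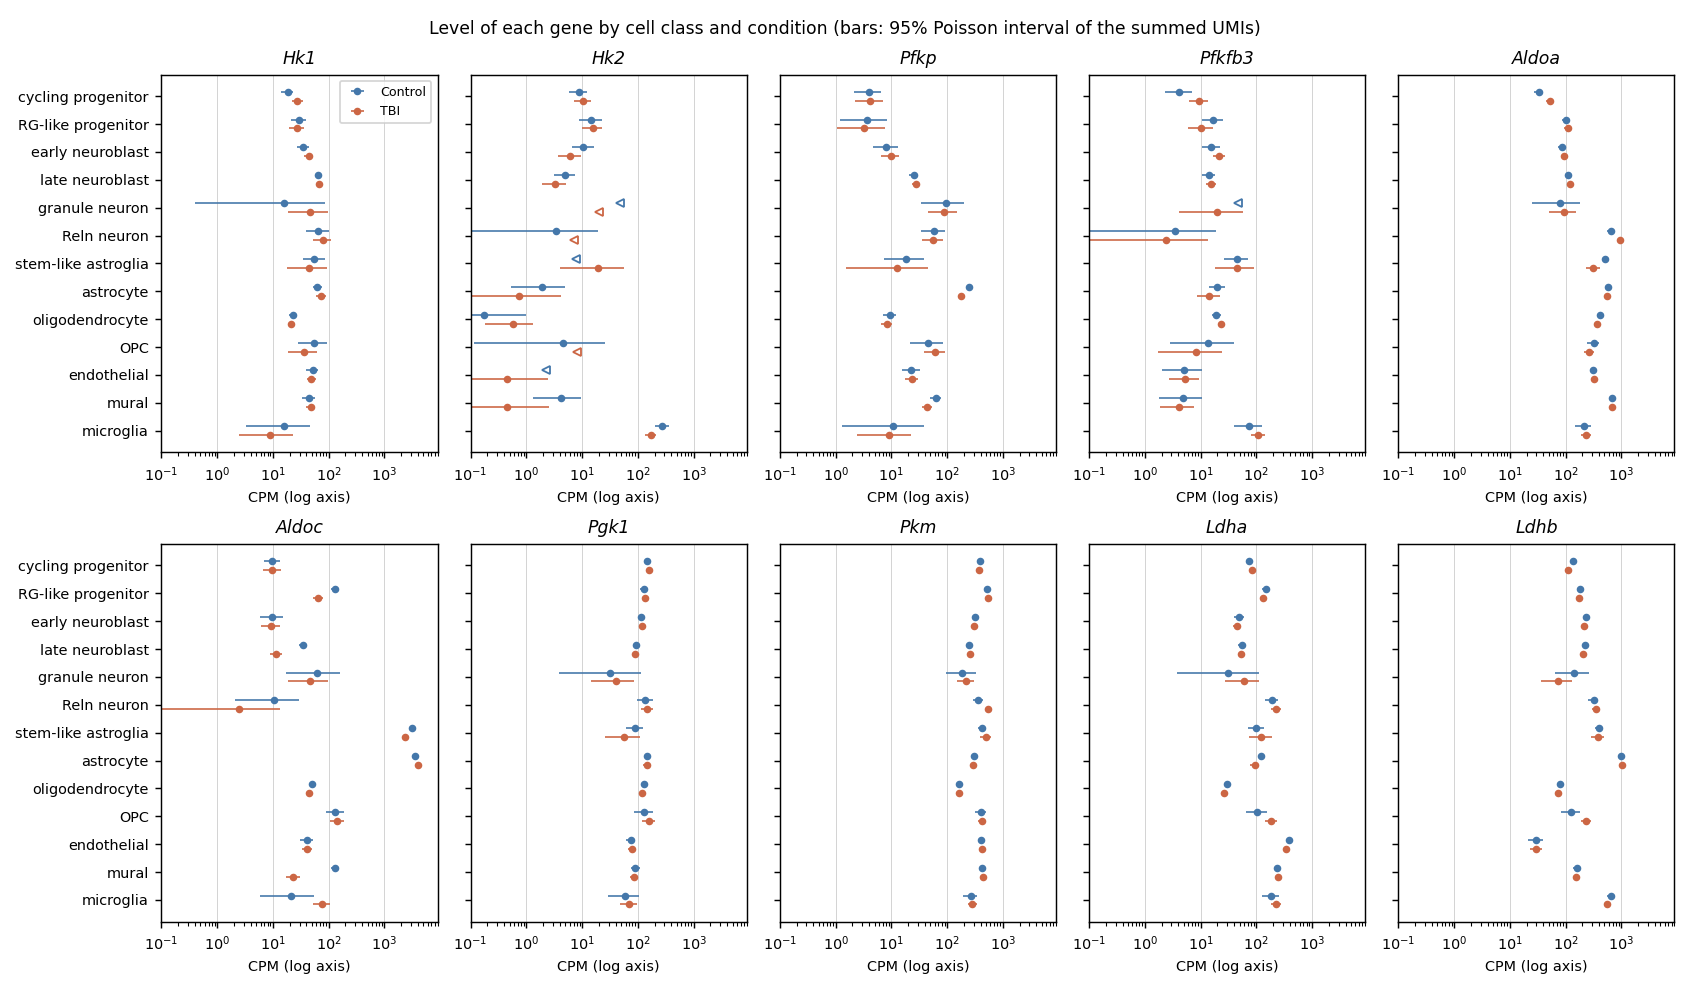
Level of the 10 genes (CPM, log axis) in 13 cell classes, in Control (blue) and TBI (orange), with bars for the 95% exact Poisson interval and open triangles at the level of 3 UMIs where none was found. Aldoc stands highest in astrocytes (3554 and 3990 CPM), Ldha in endothelial cells (394 and 348 CPM), Hk2 in microglia (275 and 172 CPM), and in most panels the points of the 2 libraries lie close together.

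Pfkp RNA was highest in astrocytes and, along the neuronal lineage, higher in late neuroblasts than in progenitors. Pfkp (13:6579768-6648777, minus strand), the platelet-type isoenzyme that catalyses the committed step, stood at 252 CPM [230, 274] in Control astrocytes and 179 CPM [157, 203] in TBI astrocytes. Stem-like astroglia held only 18.5 CPM [7.43, 38.1] and 12.7 CPM [1.54, 46.0], so the 2 astroglial classes did not overlap in either library. In the neuronal lineage Pfkp was near its lowest in RG-like progenitors (3.65 and 3.24 CPM, 5 UMIs in each library) and reached 25.01 CPM [20.5, 30.3] and 27.5 CPM [23.3, 32.2] in late neuroblasts. Mural cells held more than late neuroblasts, 62.3 CPM [49.1, 78.0] and 44.4 CPM [36.02, 54.1], endothelial cells 22.7 and 23.4 CPM and oligodendrocytes 9.48 and 8.28 CPM.

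Pfkfb3 (2:11471433-11554077, minus strand) makes fructose 2,6-bisphosphate, the activator of phosphofructokinase, and was low in all main classes. It was highest among them in stem-like astroglia, at 44.9 CPM [26.1, 71.8] and 44.5 CPM [17.9, 91.8] from 17 and 7 UMIs, and it was at 4.07 to 5.30 CPM in endothelial and mural cells. Oligodendrocytes held 19.1 CPM [15.7, 23.1] and 23.4 CPM [20.3, 26.8], more than their endothelial neighbours in the sort at 5.13 CPM [2.06, 10.6] and 5.30 CPM [2.74, 9.26]. Microglia again stood above the main classes in their estimates, with 73.9 CPM [40.4, 124] and 107 CPM [78.8, 142]. Both intervals overlapped those of stem-like astroglia. Over both libraries the microglial cluster of 83 cells held 108 CPM [82.8, 139], and that of 44 cells 13.3 CPM from 1 UMI.

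Of the aldolases, Aldoc separated astroglia from all other named classes. Aldoc (11:78322968-78327781, plus strand) was at 3554 CPM [3474, 3637] in Control and 3990 CPM [3884, 4098] in TBI astrocytes, and at 3150 CPM [2974, 3334] and 2348 CPM [2114, 2600] in stem-like astroglia. The next main class in Control was mural at 131 CPM [112, 153] and in TBI RG-like progenitors at 65.4 CPM [53.2, 79.4]. Cycling progenitors (9.74 and 9.70 CPM) and early neuroblasts (9.55 and 9.09 CPM) did not differ beyond their intervals and were the lowest main classes in both libraries. Of cells thinned to 2000 UMIs, 88.8% of Control and 91.2% of TBI astrocytes and 98.2% and 93.3% of stem-like astroglia had an Aldoc UMI. In endothelial cells, taken as a class that should lack the gene, it was 4.38% [2.21, 7.71] and 2.01% [1.01, 3.57] (unthinned 5.48% and 3.52%, median depth 4525 and 3534 UMIs). RG-like progenitors lay above this at 11.9% [6.29, 19.8] and 10.3% [5.87, 16.4] (unthinned 25.7% and 20.4%, median depth 14032 and 10620 UMIs), though in Control the intervals overlapped. The shares of cycling progenitors (1.90% and 1.57%), early neuroblasts (1.18% and 0.307%) and late neuroblasts (3.497% and 1.63%) were at or below the endothelial share.

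Aldoa (7:126795234-126800751, minus strand) had a flatter profile. Mural cells held 689 CPM [643, 737] and 683 CPM [649, 719], astrocytes 571 CPM [539, 605] and 560 CPM [521, 601], and oligodendrocytes 410 CPM [393, 427] and 369 CPM [356, 382], in that order in both libraries and without overlap. RG-like progenitors, early neuroblasts and late neuroblasts were between 85.4 and 119 CPM. Cycling progenitors were lowest, at 33.1 CPM [27.4, 39.6] in Control and 53.3 CPM [45.5, 62.1] in TBI. Reln neurons, a small class of 32 Control and 78 TBI cells with the markers of Cajal-Retzius cells, stood far above the newborn neurons at 643 CPM [554, 742] and 964 CPM [872, 1064].

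As a share of the UMIs of both aldolases, Aldoc made up 86.1% [85.4, 86.8] in Control and 87.7% [86.9, 88.5] in TBI astroglia. Oligodendrocytes had 11.1% [9.88, 12.3] and 10.7% [9.70, 11.7], and Reln neurons 1.57% [0.325, 4.52] and 0.251% [0.00636, 1.39]. Such a share does not depend on the scaling of a library, but it is one of 3′ UMIs and not of enzyme. Per 100 UMIs of the astrocyte markers, oligodendrocytes held 12.7 Aldoc UMIs in Control and 13.2 in TBI, and astrocytes 13.3 and 15.6. The 110 of 571 Control and 106 of 1114 TBI oligodendrocytes with at least 5 astrocyte-marker UMIs held 55.2% and 49.4% of their class's Aldoc. The part of astrocyte RNA in the oligodendrocyte share was not tested. Near copies of these genes took few UMIs in the kept cells, with 10 for a second Aldoa identifier, 3 for Aldoart1, 0 for Aldoart2, 2 for Ldhc, 1 for Pgk2 and 27 for Hkdc1.

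**Figure D2:**
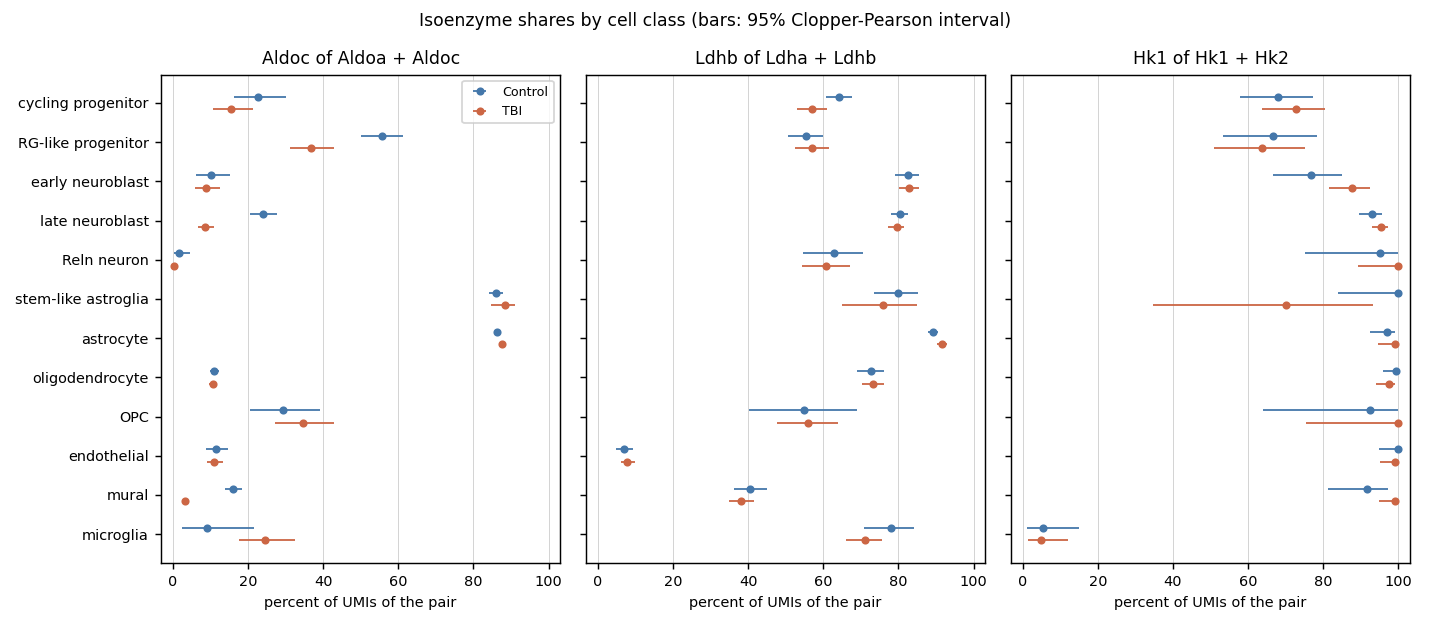
Percent of the UMIs of 3 isoenzyme pairs that came from Aldoc, Ldhb and Hk1, in each class and library (Control blue, TBI orange), with 95% Clopper-Pearson intervals; the granule neuron class is left out for its few UMIs. Aldoc is 86.0% to 88.3% in the 2 astroglial classes and at most 55.7% elsewhere, Ldhb is 6.93% and 7.84% in endothelial cells but at least 55.4% in the progenitor and neuroblast classes, and Hk1 is 5.46% and 4.94% in microglia.

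Pgk1 and Pkm, whose enzymes form ATP after the sugar has been cleaved, varied least. Pgk1 (X:106187100-106203699, plus strand) was highest in cycling progenitors, at 145 CPM [133, 158] and 160 CPM [146, 175], and endothelial cells held 74.1 CPM [60.3, 90.0] and 78.2 CPM [67.1, 90.6]. Astrocytes (144 CPM [128, 161] and 145 CPM [125, 167]) and RG-like progenitors (126 CPM [108, 147] and 134 CPM [116, 154]) could not be told from cycling progenitors within the counting error in either library, nor could oligodendrocytes in Control (131 CPM [122, 141]). Pkm (9:59656368-59679375, plus strand), the pyruvate kinase of brain and growing cells, was highest in RG-like progenitors at 517 CPM [480, 557] and 532 CPM [496, 570], and of the other main classes only stem-like astroglia, at 417 CPM [354, 487] and 496 CPM [392, 619], overlapped it. It was at 390 and 368 CPM in cycling progenitors, 319 and 304 CPM in early neuroblasts and 243 and 260 CPM in late neuroblasts. Oligodendrocytes had the lowest Pkm of the main classes, 164 CPM [154, 175] and 161 CPM [153, 169]. Pkm1 and Pkm2, the alternatively spliced forms of this gene, share their 3′ end and were counted together.

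Ldha and Ldhb marked opposite ends of the niche. Ldha (7:46841475-46855627, plus strand) stood at 394 CPM [361, 429] in Control and 348 CPM [324, 373] in TBI endothelial cells, and at 234 CPM [207, 262] and 248 CPM [227, 269] in mural cells. Of the main classes RG-like progenitors came next in Control with 148 CPM [128, 170] and in TBI with 133 CPM [116, 153], above the early neuroblasts at 49.7 CPM [40.4, 60.6] and 45.1 CPM [38.0, 53.3]. Stem-like astroglia (100.3 CPM [70.95, 138] and 121 CPM [72.8, 189]) and Control astrocytes (120 CPM [106, 136]) overlapped RG-like progenitors, and the small classes of Reln neurons (188 and 226 CPM) and microglia (185 and 227 CPM) and, in TBI, OPC (oligodendrocyte precursors, 184 CPM) stood between them and endothelial cells. Oligodendrocytes had the lowest level, 30.4 CPM [26, 35.2] and 26.3 CPM [23.04, 29.9]. Ldhb (6:142490249-142507957, minus strand) was at 992 CPM [949, 1036] and 1048 CPM [994, 1104] in astrocytes and at only 29.3 CPM [21.0, 40.0] and 29.6 CPM [22.9, 37.6] in endothelial cells. Stem-like astroglia held 398 CPM [337, 467] and 382 CPM [291, 491] of Ldhb, less than astrocytes in both libraries. Neuroblasts ranged from 206 to 235 CPM.

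The Ldhb share of the pair was 88.5% [87.2, 89.7] in Control and 91.0% [89.5, 92.3] in TBI astroglia. It was 81.1% [79.2, 82.9] and 80.7% [79.0, 82.3] in neuroblasts and 61.0% [58.2, 63.7] and 57.0% [54.0, 59.98] in progenitors. These 3 levels of pooled classes did not overlap within a library, but single classes did not all keep them apart. Stem-like astroglia had 79.9% [73.5, 85.4] and 75.95% [65.02, 84.9], which overlapped neuroblasts, while astrocytes had 89.2% and 91.7%. Cycling and RG-like progenitors did not overlap in Control, at 64.3% [60.8, 67.75] and 55.4% [50.7, 60.01]. In TBI they did, at 56.95% and 57.1%. Mural cells had 40.6% [36.2, 45.2] and 38.2% [35.0, 41.5], and endothelial cells 6.93% [4.998, 9.32] and 7.84% [6.12, 9.85]. All 5 endothelial clusters had more Ldha than Ldhb, from 239 CPM and 55.7 CPM in the shallowest cluster to 425 CPM and 12.6 CPM.

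Along the neuronal lineage the genes did not move together. The 10 clusters of these classes were arranged by their markers from cycling progenitors over RG-like progenitors to early and late neuroblasts, with a late neuroblast cluster of 82 cells poor in Malat1 (a nuclear RNA, median 0.0292% of UMIs) placed last, and the order is one of names and not a measured time. Over both libraries Pgk1 was at 181 CPM [162, 201] in the cycling cluster led by S-phase genes (Uhrf1, Mcm3, Mcm5) and at 70.6 CPM [60.3, 82.2] in the late neuroblast cluster led by Sema5a. Pkm likewise was at 498 and 243 CPM in these clusters. Pfkp went the other way, from 2.16 CPM [0.587, 5.52] to 42.7 CPM [34.8, 51.9], and Hk1 was at 26.4 CPM [19.5, 34.9] and 64.7 CPM [54.9, 75.8]. Ldhb was at 161 CPM [143, 180] and 172 CPM [155, 189] at these ends. Between them it was lower in the cycling clusters led by Hist1h1b and by Cdc20, at 111 CPM [98.7, 124] and 109 CPM [95.6, 125]. It was higher in the early neuroblast cluster led by Tac2, at 248 CPM [231, 265]. The late neuroblast cluster led by Tubb3, at 251 CPM [234, 268], could not be told apart from that cluster. The cluster poor in Malat1 did not follow this course, with Pgk1 at 138 CPM [97.9, 188], Pfkp at 7.06 CPM [0.855, 25.5] from 2 UMIs and Ldhb at 293 CPM [233, 363], while its Hk1, at 70.6 CPM [43.1, 109], was near that of the other late neuroblast clusters.

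The cycling progenitors were not uniform. The cluster led by Uhrf1 and Mcm3, called the S-phase cluster here (53 Control and 83 TBI cells), held 131 CPM [116, 149] of Ldha. This was more than in the clusters led by Hist1h1b and Top2a (53.2 CPM [45.0, 62.5]) and by Cdc20 and Ccnb2 (67.4 CPM [56.6, 79.6]). The cluster led by Hist1h1b also had the S-phase histone genes Hist1h2ae and Hist1h2ap among its top genes, so the contrast is not one of S phase as a whole. Aldoa was at 84.0 CPM [71.4, 98.3] in the S-phase cluster and at 28.4 CPM [22.5, 35.4] and 23.9 CPM [17.7, 31.6] in the other two. RG-like progenitors, at 140 CPM of Ldha and 108 CPM of Aldoa over both libraries, were near the S-phase cluster in Ldha. In Aldoa they were near that cluster in TBI only. In Control they held more Aldoa than the S-phase cluster, and the intervals did not overlap.

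**Figure D3:**
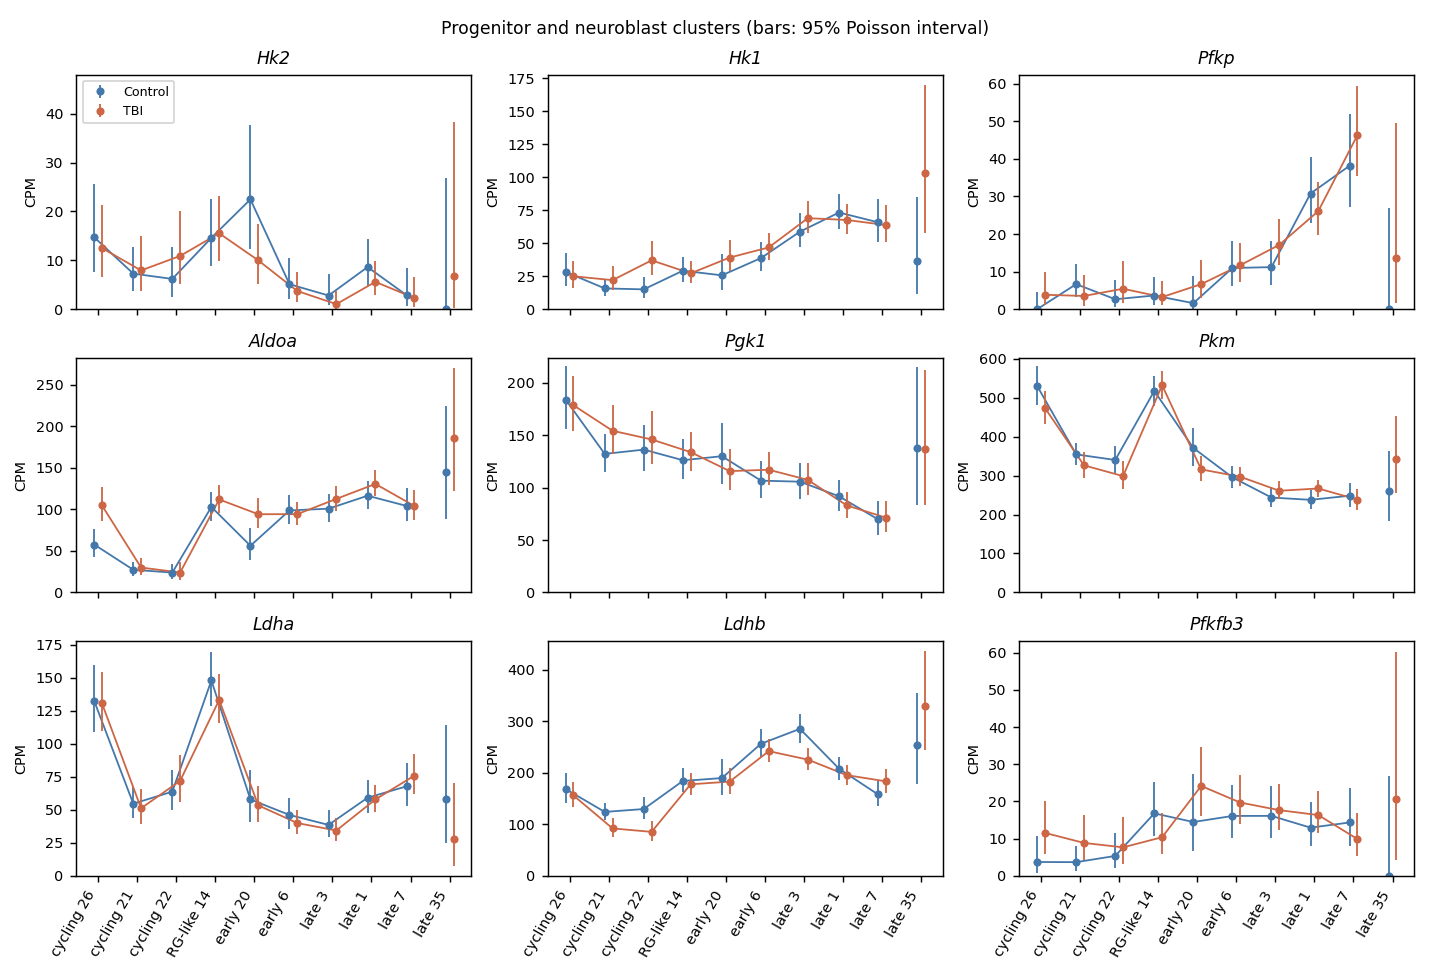
Level (CPM) of 9 of the 10 genes in the 10 progenitor and neuroblast clusters, with the clusters ordered by class and numbered as clustered, in Control (blue) and TBI (orange), with 95% exact Poisson intervals; lines join the clusters, apart from cluster 35, to guide the eye. Hk1 and Pfkp are higher towards late neuroblast cluster 7 and Pgk1 lower. Late neuroblast cluster 35, poor in Malat1, departs from this with 7.06 CPM of Pfkp and 138 CPM of Pgk1. Ldha and Pkm peak in the cycling cluster led by Uhrf1 and Mcm3 (26) and in RG-like cells (14). Aldoa is at 57.7 and 105 CPM in the libraries of cluster 26, with overlapping intervals in cycling clusters 21 and 22.

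Over the 4 astrocyte clusters, Aldoc, Aldoa, Ldhb, Pgk1, Ldha, Pkm and Hk1 were lower the more nuclear RNA a cluster held. Other astroglial clusters did not keep this order. Malat1 made up a median of 0.0655% of UMIs in one astrocyte cluster of 293 cells and 12.8% to 20.4% in the other 3. Aldoc was at 6586 CPM [6380, 6798] in the cluster poor in Malat1, at 4725 and 3297 CPM in the intermediate ones and at 894 CPM [822, 969] in the cluster richest in Malat1. Aldoa was at 968, 821, 447 and 161 CPM in the same order, Ldhb at 1743, 1427, 852 and 215 CPM, and Pgk1 at 252, 195, 129 and 19.9 CPM. Ldha was at 240, 145, 70.3 and 36.8 CPM and Pkm at 442, 335, 260 and 213 CPM. Hk1 was at 94.2, 78.3, 59.5 and 46.0 CPM, with overlapping intervals between neighbouring clusters. Pfkp departed from this order, with 214 CPM [178, 255] in the cluster poor in Malat1 and 293 CPM [253, 337] in the richest. An unnamed cluster of 285 cells, nearest to astrocytes but with few UMIs, had 0.0530% Malat1 and the most Aldoc of all clusters, 8051 CPM [7826, 8282]. A second unnamed cluster nearest to astrocytes, of 137 cells with 28.01% mitochondrial UMIs, had 12.3% Malat1 but the least Aldoc of the 6 such clusters, 599 CPM [502, 710]. Stem-like astroglia, with 9.94% Malat1, held less Aldoc (2915 CPM), Aldoa (455 CPM), Ldhb (394 CPM) and Pgk1 (80.2 CPM) than the astrocyte cluster with 12.8%.

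A cluster of oligodendrocytes with a median of 36.8% mitochondrial UMIs was low in some of the same genes. This cluster also had the most Malat1, a median of 16.25% against 4.745% to 9.272% in the other oligodendrocyte clusters. Its median depth was the lowest, 2104 UMIs against 7369 to 13710.5. It held 74.1 CPM [51.0, 104] of Aldoa and 6.74 CPM [1.39, 19.7] of Pgk1, against 361 to 440.5 CPM and 122 to 133 CPM in the other 5 oligodendrocyte clusters. Pkm was at 173 CPM [137, 216] in it and at 127 to 194 CPM in the others. Whether RNA content or cell state set these levels was not tested.

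**Figure D4:**
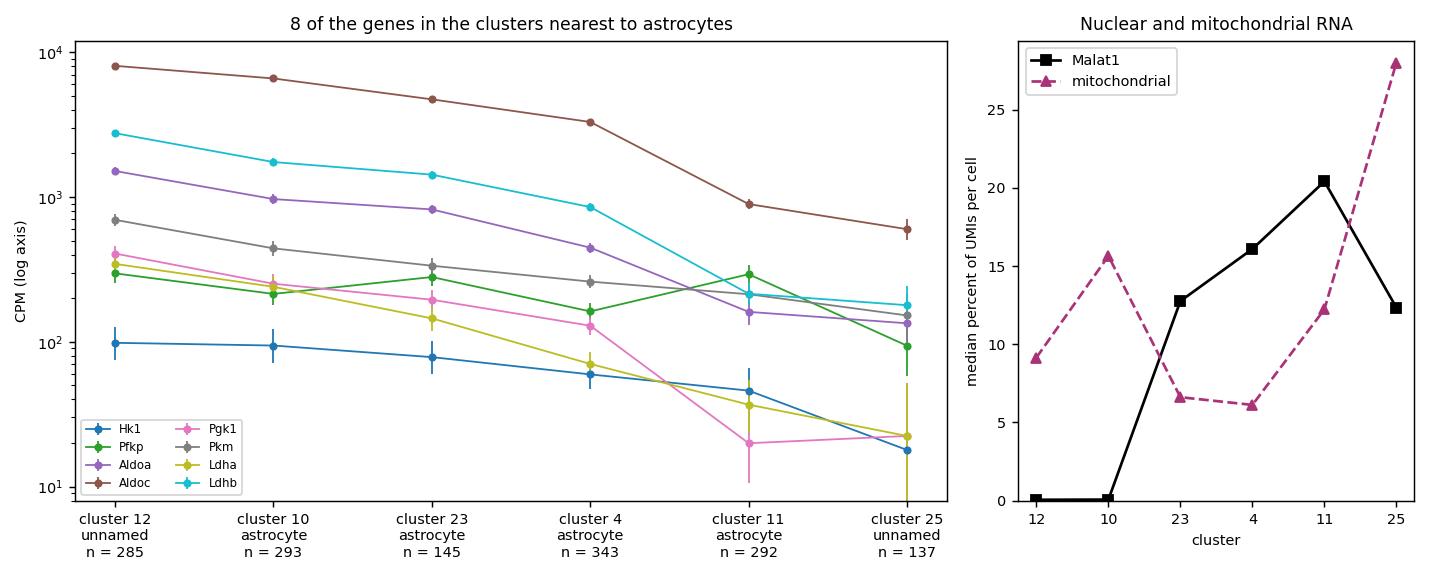
Left, level (CPM, log axis, both libraries) of 8 of the 10 genes in the 6 clusters nearest to astrocytes, with 95% exact Poisson intervals and the number of cells; right, the median percent of UMIs from Malat1 and from mitochondrial genes in the same clusters. Aldoc goes from 8051 to 599 CPM from left to right and Pfkp stays between 162 and 297 CPM in the first 5 clusters, while Malat1 is at most 0.0655% in the first 2 clusters and at least 12.3% in the rest.

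To ask whether TBI altered these enzymes, TBI was set against Control within each class. A gene entered where the class held at least 100 of its UMIs over both libraries and at least 10 in each, and a log2 ratio beyond 1.5-fold was counted. With 1 library per condition this compares 2 libraries, so no p-value is given. Of the 90 pairs of gene and main class 63 had enough UMIs, of which 58 lay within 1.5-fold, 1 was higher in TBI and 4 were lower. This is 1.59% higher and 6.35% lower, beside 1.86% and 1.53% of the 55248 pairs of all genes and main classes.

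Among progenitors, 1 of 6 genes entered was past 1.5-fold higher and 0 lower in cycling cells, where 1.52% and 1.13% of all genes were. In RG-like cells 0 of 6 were higher and 1 lower, against 1.59% and 1.18% of all genes. For neuroblasts, 0 of 6 in the early class were past the fold either way (all genes 1.42% higher and 0.958% lower). In the late class 0 of 9 were higher and 1 lower (all genes 0.647% and 1.14%).

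In stem-like astroglia 0 of 4 genes were higher and 1 lower, with 3.21% and 4.75% of all genes past the fold in this small class. In astrocytes 0 of 8 were past it (1.0% of all genes higher and 1.55% lower), in oligodendrocytes 0 of 9 (1.29% and 0.75%) and in endothelial cells 0 of 7 (1.45% and 0.964%). In mural cells 0 of 8 were higher and 1 lower, where 6.74% and 4.81% of all genes were past the fold, the widest scatter of the 9 classes. Median ratios of the genes entered were near those of all genes in astrocytes (0.00 for both) and lay furthest from them in stem-like astroglia (-0.24 and -0.04), with 4 genes entered, and in oligodendrocytes (-0.15 and 0.00), where 8 of 9 were below 0.

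**Figure D5:**
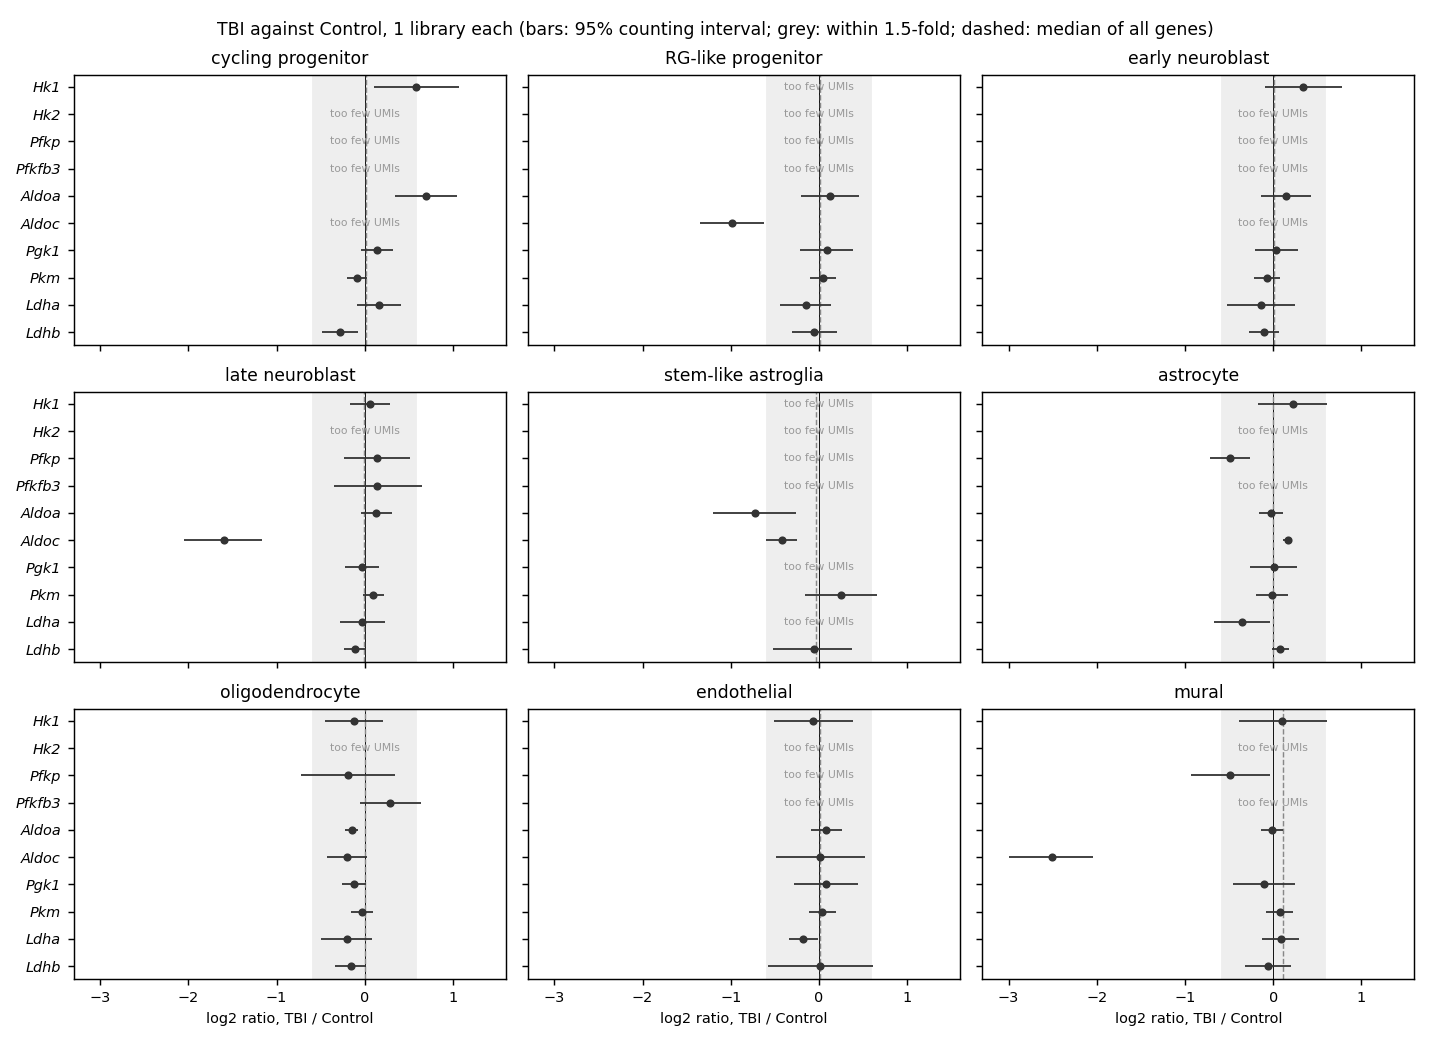
Log2 ratio of TBI to Control for each gene in the 9 main classes, with the 95% exact interval of counting; grey marks ratios within 1.5-fold and the dashed line the median of all genes in the class. Of 63 ratios shown, 58 lie within the grey band in their estimate, and the points outside are Aldoa in cycling progenitors and stem-like astroglia and Aldoc in RG-like progenitors, late neuroblasts and mural cells.

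All 5 pairs past the fold were aldolases, and Hk1 in cycling progenitors, at 1.496-fold, lay just inside the fold. With doublets left out 2 of the 5 remained past it (Aldoa in stem-like astroglia and Aldoc in mural cells), without integration 2 (Aldoc in late neuroblasts and in mural cells) and with cells thinned to 2000 UMIs 0, since fewer pairs then had enough UMIs. Aldoa in cycling progenitors was at 33.1 CPM in Control and 53.3 CPM in TBI, a log2 ratio of 0.69 [0.34, 1.04]. Among the cycling clusters the levels differed in the S-phase cluster, with 57.7 CPM [42.4, 76.7] against 105 CPM [86.0, 126]. The other 2 cycling clusters had 27.3 and 29.98 CPM and 23.9 and 24.0 CPM. The mix of clusters differed as well, since the S-phase cluster held 53 of 214 Control and 83 of 255 TBI cycling progenitors. The part of this mix in the class ratio was not tested. In the S-phase cluster 56.6% of Control and 67.5% of TBI cells had an Aldoa UMI, and the 5 cells with the most held 27.7% and 26.6% of them. Without those cells it stood at 46.2 and 83.3 CPM. Summed oligodendrocyte markers in that cluster were at 174 CPM in Control and 1201 CPM in TBI and summed mural markers at 3.68 and 211 CPM, and their part in the Aldoa difference was not tested. With all doublets left out the ratio of the class was 0.54, below the fold. Once cells were thinned to 2000 UMIs, 8.53% [5.13, 13.2] of Control and 7.06% [4.24, 10.9] of TBI cycling progenitors had an Aldoa UMI, so the thinned shares did not show the difference. Unthinned shares were 40.7% and 37.7%, at a median depth of 17244 and 12003 UMIs.

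Aldoa in stem-like astroglia went the other way, from 515 CPM [445, 592] in Control to 312 CPM [231, 412] in TBI, a log2 ratio of -0.72 [-1.21, -0.26] from 195 and 49 UMIs. Only 55 and 30 cells stood behind it. When each cell was named by its own marker score the ratio was -0.05. Aldoc in the same class had a ratio of -0.42 [-0.60, -0.25].

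The 3 low ratios of Aldoc fell in classes in which it was sparse. In mural cells it was at 131 CPM in Control and 23.1 CPM in TBI, a log2 ratio of -2.51 [-2.99, -2.04]. However, 5 cells held 75.0% of the 160 Control UMIs and 5 held 76.5% of the 51 TBI UMIs. The 16 Control and 23 TBI mural cells with at least 5 astrocyte-marker UMIs held 93.8% and 72.5% of Aldoc. The other 265 and 684 cells were at 8.82 and 6.76 CPM, from 10 and 14 UMIs. Without the 5 cells that held the most Aldoc, the class was at 34.0 and 5.49 CPM. The 10 astrocyte markers, all detected in both libraries, summed to 647 CPM in Control and 320 CPM in TBI mural cells, beside 26800 and 25540 CPM in astrocytes, and their defining members Slc1a2 and Slc1a3 were at 310 and 106 CPM and at 197 and 138 CPM in mural cells. Most mural cells fell in 2 clusters, where Aldoc was at 96.3 CPM in Control and 3.96 CPM in TBI, and at 303 and 36.4 CPM in the cluster led by the stress gene Hspa1a, which held 44 Control and 259 TBI cells.

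In late neuroblasts Aldoc was at 34.5 CPM [29.1, 40.5] in Control and 11.4 CPM [8.75, 14.6] in TBI, a log2 ratio of -1.60 [-2.05, -1.16]. Of the 146 and 63 UMIs 64.4% and 54.0% were in 5 cells. In the late neuroblasts with fewer than 5 astrocyte-marker UMIs the levels were 6.65 and 7.32 CPM, from 8 and 19 UMIs. These cells were 155 of 431 in Control and 383 of 740 in TBI, at a class median depth of 10587 and 7936 UMIs. Without the 5 cells that held the most Aldoc, the levels were 12.5 and 5.29 CPM. Without doublets too few UMIs were left to enter. Astrocyte markers summed to 813 and 732 CPM in this class.

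In RG-like progenitors Aldoc was at 129 CPM [111, 150] and 65.4 CPM [53.2, 79.4], a log2 ratio of -0.98 [-1.35, -0.62]. Here 5 cells held 70.1% and 50.5% of the UMIs, and without them the levels were 41.1 and 33.4 CPM. Astrocyte markers, some of which progenitors themselves express, summed to 2415 and 2205 CPM. Without doublets the ratio was -0.46, and with each cell named by its own marker score it was 0.12 [-0.42, 0.66]. The part of astrocyte RNA in these 3 differences was not tested.

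In astrocytes, which held the most Aldoc, the log2 ratio was 0.17 [0.12, 0.22], from 7333 and 5372 UMIs, a fold of 1.12. Within astrocytes with under 0.5% Malat1 (129 Control and 151 TBI cells) the level was 6311 CPM in Control and 7117 CPM in TBI, a ratio of 0.17 [0.08, 0.27]. Those with more Malat1 (430 and 363 cells) were at 3041 and 3283 CPM, a ratio of 0.11 [0.05, 0.17], and those of them with at most 10% mitochondrial UMIs at 0.04 [-0.02, 0.11]. The share of droplets poor in Malat1 was 23.1% of Control and 29.4% of TBI astrocytes.

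Other genes in astrocytes and vascular cells had ratios inside 1.5-fold with an interval on 1 side of 0. Pfkp in astrocytes was lower in TBI, at -0.49 [-0.72, -0.27], and was so at -0.69 [-1.29, -0.12] and -0.45 [-0.70, -0.21] in droplets poor and rich in Malat1. Astrocyte clusters were mixed differently in the libraries. Over both, Pfkp was at 293 CPM in a cluster of 180 Control and 112 TBI cells and 280 CPM in one of 94 and 51. It was at 214 CPM in one of 133 and 160 and 162 CPM in one of 152 and 191. The part of this mix in the astrocyte ratio was not tested. Ldha in astrocytes was at -0.35 [-0.67, -0.04] and Pfkp in mural cells at -0.49 [-0.94, -0.04]. Mural clusters were mixed differently in the libraries. The one led by Acta2 and Tagln held 51 of 281 Control and 40 of 707 TBI mural cells. Over both libraries Pfkp was at 91.9 CPM there. In the largest mural clusters, led by Atp13a5 and Abcc9 and by Kcnj8 and Hspa1a, it was at 36.4 and 38.1 CPM. The part of this mix in the mural ratio was not tested. Ldha in endothelial cells was at -0.18 [-0.34, -0.02]. Aldoa in oligodendrocytes was at -0.15 [-0.23, -0.07].

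In cycling progenitors Hk1 was at 0.58 [0.10, 1.07] and Ldhb at -0.29 [-0.49, -0.08]. Their clusters differed, with Hk1 at 15.1 CPM in Control and 37.1 CPM in TBI in the cluster led by Cdc20, and at 28.2 and 24.97 CPM in the S-phase cluster. The Ldhb share of cycling progenitors was 64.3% [60.8, 67.7] in Control and 57.0% [52.9, 60.9] in TBI. Pgk1 and Pkm, by contrast, were within 0.14 and 0.25 of 0 in every main class they entered, and none of their intervals lay on 1 side of 0. This does not show equal levels, since their widest interval, Pkm in stem-like astroglia, ran from -0.16 to 0.65.

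Of the small classes outside the main 9, Reln neurons had higher Aldoa and Pkm in TBI, at 0.58 [0.33, 0.84] and 0.59 [0.25, 0.94], and OPC (28 and 55 cells) higher Ldhb at 0.87 [0.24, 1.54]. These were 2 of 5 genes entered in Reln neurons and 1 of 3 in OPC, where 5.25% and 19.3% of all genes were at least 1.5-fold higher and 5.03% and 10.8% lower. Hk2 in microglia, given above at -0.68, was the 1 of 5 genes entered there that was past the fold, where 5.22% of all genes were lower and 4.46% higher. Summed oligodendrocyte markers were at 2226 CPM in Control and 308 CPM in TBI Reln neurons, and at 26060 and 7042 CPM in OPC. Endothelial and mural markers went the other way in Reln neurons, from 13.7 to 257 CPM and from 68.4 to 299 CPM. Doublet calls were 3.125% of Control and 6.41% of TBI Reln neurons. The part of RNA from other cells in these ratios was not tested. The granule neuron class, named from 3 markers, had too few UMIs for any of the genes (33.5% of the 209 genes that entered were higher in TBI and 2.87% lower).

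The other genes of the pathway, were kept in 6 lists of 72 genes in all. In the main classes 293 pairs of gene and class had enough UMIs, of which 1 was at least 1.5-fold higher in TBI and 7 lower, beside 1.86% and 1.53% of all genes. Of these the 20 other glycolytic enzymes gave 65 pairs, with 1 higher (Pfkm, a phosphofructokinase, in early neuroblasts at 0.61 [-0.02, 1.26]) and 1 lower (Pgam1, a phosphoglycerate mutase, in stem-like astroglia at -0.69 [-1.37, -0.05]). The 13 genes of pyruvate entry into mitochondria gave 68 pairs and none past the fold. The 9 genes of glucose and lactate transport had 1 of 25 pairs lower, the 11 glycogen genes 1 of 37, the 12 genes of the HIF pathway 1 of 50 and the 7 pentose phosphate genes 3 of 48.

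The genes most like 4 of the members were sought among 7908 genes by the Pearson correlation of log2(CPM + 1) over 26 points, the 13 classes in each of 2 libraries. Points of a library share its depth and free RNA, so these values are descriptions. Aldoc was most like Clu (0.97), Cxcl14 (0.93) and Hapln1 (0.92), and Ldha most like Gbp7 (0.82), Anxa6 (0.82) and Blvrb (0.81). Hk2 was most like Ccdc86 (0.84), Etf1 (0.78) and Fcrls (0.78), the last a microglial gene. Pkm was most like Mrps14 (0.85), Mesd (0.79) and Rheb (0.78). Between members the highest value was that of Pkm and Ldha (0.73), and the lowest were those of Hk2 with Pfkp (-0.524) and with Hk1 (-0.520).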

How the data were processed

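The authors aligned and counted the reads with Cell Ranger 3.0.2 on GRCm38/mm10, and deposited 1 table per condition of whole-number UMI counts per gene and barcode, without normalization and before their own filter on RNA content. The tables were tied to Control and TBI by barcodes the study lists for some of its cells (356 of 356 and 320 of 320 found, 0 crossed).

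A barcode was kept if it had 200 genes or more and its log UMI count lay no further than 3 median absolute deviations from the library's median. Clustering followed the study's methods with Seurat 5.3.0 (R 4.3.3), on 2000 variable genes integrated by canonical correlation analysis over 20 dimensions and reduced to 20 principal components, at a resolution of 3.0. The 10 genes, the other pathway genes and Malat1 were kept out of it. A cluster took the name of the marker set with the highest mean standardized level if at least 3 of its markers were detected in 10% of the cells, and stayed unnamed where its median UMI count was under 0.333 of that of its libraries with none of the markers among its top 10 genes. Scrublet (scanpy 1.11.5, 0.8% expected per 1000 cells) marked doublets, which were left in. UMIs were summed per class and library into CPM over all genes except Malat1. Levels have exact Poisson intervals, shares Clopper-Pearson intervals and ratios exact conditional intervals, all at 95%, and no test was made because a condition is 1 library. The floor for a count of 0 is 3 UMIs per library. Ratios and their intervals were checked on simulated Poisson counts for late neuroblasts, astrocytes, oligodendrocytes and mural cells. These counts follow the model that the intervals assume and hold no spread between cells. Levels and shares were not simulated. Python 3.11.15, numpy 2.4.6, scipy 1.17.1, pandas 2.3.3 and matplotlib 3.10.9 were used.

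The genes, markers, pathway lists and settings were chosen with earlier results of these data known. Other pathway genes are named if among the 2 highest or 2 lowest ratios of their list in a class or its 2 highest levels, and like genes are the 3 with the highest correlation among genes with at least 1000 UMIs outside the lists. Coordinates are those of GRCm38. Alternatives changed the filter, the doublets, the integration, the clustering genes, the naming of cells, the scaling, the depth, the fold limit and the count minimum, 1 at a time.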

Additional observations from a re-analysis of the deposited data

How the results depend on the processing

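No paired analysis was possible because the animals of a condition were pooled into 1 library, so the replicate numbers of the labels name no separate values. Other filters on RNA content, pathway genes put back into clustering, CPM over nuclear genes, centring, and leaving out clusters led by stress genes left the count of 1 pair at least 1.5-fold higher and 4 lower within 1.5 times. Pairs higher numbered 2 without cells over 10% mitochondrial RNA and 2 without droplets under 0.5% Malat1, the added pair being Hk1 in cycling progenitors, and pairs lower numbered 2 without doublets. Without integration, and with each cell named by its own marker score, the counts were 1 and 3, but 2 of the 5 pairs were shared with the main ones in each. In both of these settings and without doublets, the higher pair was Hk1 in cycling progenitors and not Aldoa. With cells thinned to 2000 UMIs, where 35 pairs had enough UMIs, the counts were 0 and 1 (Ldha in astrocytes), at a 2-fold limit 0 and 2, and at a minimum of 500 UMIs, with 33 pairs, 0 and 0. The alternatives on Malat1 and on stress genes were chosen after seeing the data.

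The Ldhb share in astroglia (89.5% over both libraries) was 90.8% without cells over 10% mitochondrial RNA and 88.3% with each cell named by its own marker score, under which the Aldoc share in astroglia (86.8%) was 86.1%. The Aldoc share in neuroblasts (13.9%) was 7.81% without doublets. The 13.9% pools libraries that did not overlap, with 20.7% [17.9, 23.7] in Control and 8.73% [7.09, 10.6] in TBI. The Ldhb share in neuroblasts (80.9%) was 79.3% without integration and 78.5% after thinning, and in progenitors (59.1%) 55.0% after thinning. Of the ratios past the fold, Aldoc in RG-like progenitors reversed to 0.12 with each cell named by its own marker score, Aldoa in stem-like astroglia ran from -0.88 to -0.05, Aldoa in cycling progenitors from 0.54 to 0.70, Aldoc in late neuroblasts from -1.92 to -1.59 and in mural cells from -3.40 to -2.45. The cause of these shifts was not tested beyond what each setting leaves out. In late neuroblasts Aldoc had too few UMIs to enter without doublets and after thinning, and in mural cells after thinning. Its ranges in these 2 classes leave those settings out. Depth limits Hk2, Pfkfb3 and Pfkp most, which had enough UMIs in 0, 2 and 4 of the main classes.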

Other observations

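Genes around the pathway marked the same classes from other sides. In endothelial cells the glucose transporter gene Slc2a1 was at 1651 CPM in Control and 1761 CPM in TBI, against 118 and 111 CPM in astrocytes. Bsg, the chaperone of the lactate transporters, was at 15360 and 14770 CPM in endothelial cells and 526 and 484 CPM in astrocytes. The lactate transporter gene Slc16a1 was at 688 and 592 CPM in endothelial cells and, next among the main classes, at 112 and 116 CPM in oligodendrocytes.

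Astrocytes held the glycogen genes Ugp2, at 468 and 454 CPM, and Pygb, a glycogen phosphorylase, at 278 and 316 CPM, and stem-like astroglia held Pygb at 256 and 235 CPM. Oligodendrocytes stood out for Taldo1, of the pentose phosphate pathway, at 1047 and 1079 CPM, against 99.4 and 93.6 CPM in astrocytes, and for Bpgm, the bisphosphoglycerate mutase, at 407 and 418 CPM. Gapdh was at 1115 and 989 CPM in cycling progenitors and 470 and 457 CPM in late neuroblasts. Mural cells held Slc2a4, the insulin-sensitive glucose transporter gene, at 56.6 CPM in Control and 33.5 CPM in TBI.

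Over the 6 lists and all 13 classes, 317 entries had enough UMIs, of which 3 were at least 1.5-fold higher in TBI and 8 lower, beside 2.44% and 1.85% of the 58895 pairs of all genes and classes. In mural cells Pygb was at -1.42 [-1.90, -0.95], Ndrg1, a hypoxia-responsive gene, at -1.40 [-1.86, -0.95] and Slc2a4 at -0.76 [-1.25, -0.26]. Summed astrocyte markers were also lower in TBI mural cells, and so were oligodendrocyte markers (702 CPM in Control and 385 CPM in TBI). Mural clusters were also mixed differently in the libraries. The part of either in these ratios was not tested. In early neuroblasts Rpe and Rpia, of the pentose phosphate pathway, were at -1.0 [-1.54, -0.47] and -0.65 [-1.16, -0.15], and Rpe in cycling progenitors at -0.67 [-1.15, -0.21]. Hif1a, the gene of the oxygen-regulated transcription factor, entered in every main class except stem-like astroglia and was within 1.5-fold in each.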
